A study of Homo sapiens with 18 samples.

Results

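The genes described here carry glucose into the cell, break it down to pyruvate and lactate, control the entry of pyruvate into the mitochondrion and run part of the pentose phosphate pathway. They were chosen by name, as a list of 32 of the 60675 genes counted: 5 glucose transporters (SLC2A1, SLC2A3, SLC2A8, SLC2A10 and SLC2A12), 2 hexokinases (HK1 and HK2), the other enzymes of glycolysis, the lactate dehydrogenase subunits LDHA and LDHB, the pyruvate dehydrogenase subunit PDHA1 with its 4 kinases (PDK1 to PDK4), and PGD, TKT and TALDO1 of the pentose phosphate pathway. Of these 32 genes, 31 passed a filter on low counts and were tested in LNCaP and 30 in C4-2. The filter on low counts removed PDK4 in both lines and SLC2A10 in C4-2.

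Expression was measured by poly(A) RNA Seq in LNCaP, a human prostate cancer cell line that depends on androgen for growth, and in C4-2, a line derived from LNCaP that grows without androgen. Each line was studied in 3 groups of 3 libraries: scrambled siRNA (siScr) with vehicle, siScr with the synthetic androgen R1881 (1 nM, 72 h), and siRNA against the histone demethylases KDM1A and KDM7A together with R1881 (1 nM, 72 h). All groups of a line therefore carried siRNA, and knockdown cells with vehicle or with 1 demethylase knocked down alone were not analysed here. For the 3 C4-2 vehicle libraries the titles name C4-2 but the cell line field names LNCaP, and the titles were followed. Over 513 genes that separated the lines in the R1881 libraries, on a scale with LNCaP at 0 and C4-2 at 1, those 3 libraries lay at 1, 1 and 1.01 and the LNCaP vehicle libraries between 0.00358 and 0.0311. Each line is a single cell line, and the replicate numbers are the only mark of separate samples in the labels, so the p-values measure the spread between these libraries.

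Total counts per library ran from 3182604 in C4-2 vehicle replicate 3 to 20154243, with a median of 18117641. The luminal markers KLK3, KRT8 and KRT18 were detected in every library, at 18.6 to 5739 CPM (counts scaled to the library's depth), 234 to 1575 CPM and 136 to 711 CPM, while the summed basal markers KRT5, KRT14 and TP63 reached at most 1.6 CPM and the endothelial marker PECAM1 at most 0.139 CPM. The immune marker PTPRC lay at 1.74 to 3.2 CPM in the C4-2 vehicle libraries and at no more than 0.183 CPM elsewhere, and the stromal pair COL1A1 and DCN at a summed 6.95 to 36.3 CPM. The part of those transcripts in the results was not tested. The knockdown libraries had 2.07-fold less KDM1A in LNCaP and 8.67-fold less in C4-2 than the siScr R1881 libraries of the same line, and 1.9-fold and 5.69-fold less KDM7A. The loss of both was larger in C4-2 (KDM1A by −2.04 in log2FC at an adjusted p of 2.36e-09 and KDM7A by −1.56 at 6.06e-07, from the interaction of line and treatment in edgeR). In these bulk samples, fewer cells of a kind and less RNA per cell cannot be told apart.

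As background, glucose enters cells through transporters of the SLC2A (GLUT) family and is trapped as glucose 6-phosphate by hexokinases. Glycolysis then yields pyruvate, which LDHA and LDHB interconvert with lactate or which pyruvate dehydrogenase, held in check by the PDK kinases, sends into the citric acid cycle. Glucose 6-phosphate can instead enter the pentose phosphate pathway, which supplies NADPH and ribose. Many genes of glycolysis are known targets of the hypoxia-inducible factors, and in prostate cancer cells androgen is known to raise glucose uptake and lipid synthesis.

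Promoter sequences are printed for 4 members on which the results turn: SLC2A10 and SLC2A12, differentially expressed with R1881 in LNCaP, and LDHA and LDHB, the subunit pair whose balance differed between the lines. Each is the 250 bases before the gene start in RefSeq on GRCh38.p14, written 5′ to 3′ on the strand of the gene. Gene starts in the annotation behind the gene coordinates given here differ from those of RefSeq, so that all 4 stretches overlap the gene as annotated there and that of LDHB lies wholly within it. SLC2A10 was read from chr20:46709399-46709648 on the plus strand, SLC2A12 from chr6:134052625-134052874 on the minus strand, LDHA from chr11:18394313-18394562 on the plus strand and LDHB from chr12:21657843-21658092 on the minus strand. Capitals mark matches on either strand to ACGTG (the core of a hypoxia response element), CACGTG (the E-box, which holds ACGTG on both strands) or GGGCGG (the GC box). Of the 32 members, 30 had an entry, and SLC2A3 and PFKFB2 had none.
SLC2A10 promoter: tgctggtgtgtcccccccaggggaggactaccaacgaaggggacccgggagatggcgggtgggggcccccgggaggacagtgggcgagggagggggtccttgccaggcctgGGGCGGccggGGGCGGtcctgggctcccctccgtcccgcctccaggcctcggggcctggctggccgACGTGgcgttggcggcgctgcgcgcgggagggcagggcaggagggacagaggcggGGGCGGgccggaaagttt
SLC2A12 promoter: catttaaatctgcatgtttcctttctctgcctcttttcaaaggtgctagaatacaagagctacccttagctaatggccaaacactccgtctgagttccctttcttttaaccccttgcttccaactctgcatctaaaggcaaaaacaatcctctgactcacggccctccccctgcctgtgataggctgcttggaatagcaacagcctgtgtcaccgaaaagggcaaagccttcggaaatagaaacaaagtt
LDHA promoter: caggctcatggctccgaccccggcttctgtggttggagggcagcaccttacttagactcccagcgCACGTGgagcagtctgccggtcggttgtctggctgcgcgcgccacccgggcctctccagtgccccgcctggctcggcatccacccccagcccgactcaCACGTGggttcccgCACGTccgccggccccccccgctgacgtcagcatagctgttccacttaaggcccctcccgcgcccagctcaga
LDHB promoter: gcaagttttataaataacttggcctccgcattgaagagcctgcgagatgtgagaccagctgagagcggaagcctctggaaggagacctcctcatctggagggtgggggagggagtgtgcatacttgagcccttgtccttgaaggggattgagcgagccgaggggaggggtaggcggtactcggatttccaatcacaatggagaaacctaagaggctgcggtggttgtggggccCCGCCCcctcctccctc

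The SLC2A12 stretch held none of these motifs and 4 CpG dinucleotides, at a GC content of 46%. SLC2A10 held 1 ACGTG, 3 GGGCGG and 22 CpG at 76.8% GC, and LDHA held 5 ACGTG, counting both strands of its 2 CACGTG, with 22 CpG at 69.6% GC. LDHB held 1 GGGCGG and 9 CpG at 58% GC. The median over 27305 promoters of this length was 11 CpG. ACGTG was found in 10 of the 30 member promoters (33.3%) and in 18.7% of all promoters, or 23.2% of those of genes tested. CACGTG was found in ALDOC, GAPDH and LDHA (10%, against 6.49% of all promoters and 8.84% of those of genes tested), and GGGCGG in 22 members (73.3%, against 42.3% of all and 65.1% of those of genes tested). These are matches of letters within a short window and were not tested as binding sites.

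Compared as FPKM, that is CPM divided by gene length, the members spanned a wide range of levels. GAPDH, ENO1 and TPI1, all enzymes of glycolysis, were the 3 highest members by FPKM in every group, at 518, 321 and 253 FPKM in LNCaP vehicle. The length used is that of the gene in the counts, not of the transcript expressed, and the order of genes and their shares rest on it. By CPM, TPI1 (mean 683 in LNCaP vehicle) lay below PKM (1107), LDHA (935) and ALDOA (830). At the low end, PDK4 had 27 counts in all 18 libraries together, 13 of them in C4-2 R1881 replicate 1. The 32 members together took 1.04% ± 0.0409 (SD, n = 3) of the counts in LNCaP vehicle, 1.1% ± 0.065 with R1881 and 1.3% ± 0.0513 with the dual knockdown. In C4-2 these shares were 1.42% ± 0.0424, 1.63% ± 0.0354 and 1.68% ± 0.13. The ranges of the share did not overlap between the lines, 1.01% to 1.36% in LNCaP and 1.37% to 1.81% in C4-2.

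**Figure D1:**
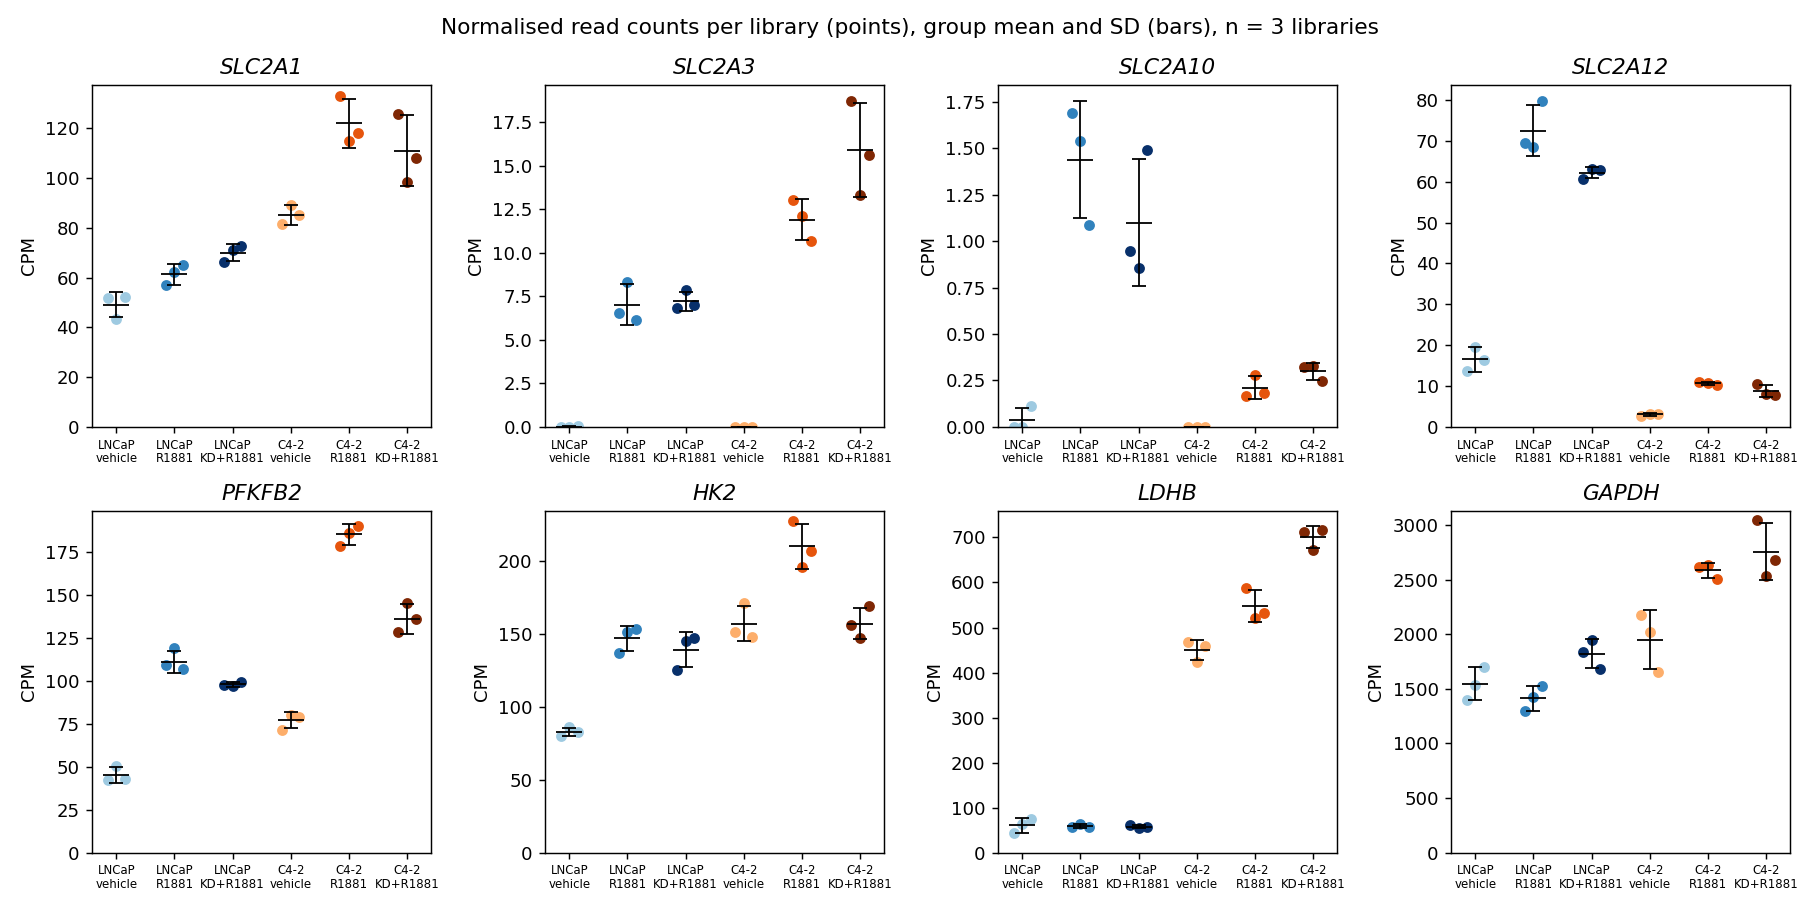
Levels of SLC2A1, SLC2A3, SLC2A10, SLC2A12, PFKFB2, HK2, LDHB and GAPDH in the 6 groups, in CPM on linear axes from 0 that differ between genes, with a point for each library and bars for the mean and SD of the 3 libraries (KD, the dual knockdown). SLC2A3 and SLC2A10 lie at or near 0 with vehicle, and LDHB stands between 43.5 and 75 CPM in the LNCaP libraries and between 423 and 717 CPM in those of C4-2.

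The comparison of R1881 with vehicle asked which of these genes the androgen moved. Most of them rose. In LNCaP, 18 of 31 tested members rose and 2 fell (adjusted p under 0.05, edgeR's quasi-likelihood F-test), against 23.5% of all genes tested that rose and 23.2% that fell. In C4-2, 20 of 30 rose and 2 fell, against 17.1% and 15.7% of all genes. The median log2 fold change (log2FC) of the members was 0.21 in LNCaP and 0.36 in C4-2, beside −0.04 and −0.02 over all genes. Most shifts were below 2-fold, and 4 members in LNCaP and 3 in C4-2 also reached a log2FC of 1, called differentially expressed here (12.3% and 9.07% of all genes, in either direction). Genes with high counts pass such a test more often, and of those averaging at least 50 CPM 41.3% rose in LNCaP and 31.2% in C4-2.

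The transporters held the largest responses. SLC2A3 (GLUT3, a high-affinity glucose transporter; chr12:7919230-7936275, minus strand, GRCh38) had 0, 0 and 1 counts in the LNCaP vehicle libraries and 120, 114 and 107 with R1881, or 6.56, 8.34 and 6.14 CPM. In C4-2 it had 0 counts in each vehicle library and 237, 216 and 175 with R1881, or 13, 12.1 and 10.7 CPM. In both lines the gene thus went from the limit of detection to a low level in all R1881 libraries. In LNCaP the ratio was 354 (95% exact counting interval 63.1 to 14024, adjusted p = 4.72e-11), and in C4-2, set against a floor of 3 counts over the group, expression was at least 161-fold higher (adjusted p = 2.95e-09). The log2FC of the edgeR fit in LNCaP was 8.01, and ran from 7.40 to 9.88 with single libraries left out. SLC2A14, a near-identical copy of SLC2A3 whose reads cannot always be told from it, had at most 7 counts in any library. The SLC2A3 pseudogenes had 29 counts over the LNCaP vehicle libraries and 16 with R1881, and 10 and 17 in C4-2. With these added to SLC2A3 the rise was 12.4-fold in LNCaP and 48.4-fold in C4-2 (adjusted p = 5.79e-10 and 1.42e-09). The summed response then differed between the lines (1.96, adjusted p = 0.00481, against 0.429 without them). So did the summed vehicle level, lower in C4-2 (log2FC −1.21, adjusted p = 0.0236, against 0.358 without them). SLC2A3 itself had 1 count over the LNCaP vehicle libraries and 0 over those of C4-2. The summed vehicle levels are thus almost wholly those of the pseudogenes, and neither difference is shown for SLC2A3 itself.

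SLC2A12 (GLUT12; chr6:133988697-134052636, minus strand), another glucose transporter of the family, had 13.7, 19.6 and 16.3 CPM in LNCaP vehicle and 69.4, 68.4 and 79.8 CPM with R1881. The rise was 4.27-fold (log2FC 2.10, SE 0.10, adjusted p = 1.74e-11). In C4-2 it went from 2.69, 3.26 and 3.19 CPM to 11, 10.7 and 10.3 CPM, 3.54-fold (log2FC 1.82, SE 0.17, adjusted p = 9.69e-07). The vehicle and R1881 libraries did not overlap in either line, and the response did not pass the test of a difference between the lines (−0.29, 95% interval −0.70 to 0.13, adjusted p = 0.401). SLC2A10 (GLUT10; chr20:46709487-46736347, plus strand) had 0, 0 and 2 counts in LNCaP vehicle and 31, 21 and 19 with R1881. Its ratio was 36.9 (95% interval 9.83 to 310, adjusted p = 9.83e-06), although no R1881 library exceeded 1.69 CPM. The log2FC of the edgeR fit was 4.95, and ran from 4.28 to 7.61 with single libraries left out, so the size of the rise is uncertain. In C4-2 the same gene had 0 counts in all vehicle libraries and 3, 5 and 3 with R1881, at least 2.82-fold higher against the floor of 3 counts over the group. The filter removed it there, and in the edgeR fit without a filter it passed (adjusted p = 0.0207), as did PDK4 in C4-2 (adjusted p = 0.0122), which had 0 counts in the vehicle libraries and 13, 0 and 3 with R1881.

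SLC2A1 (GLUT1), the widespread basal glucose transporter, rose less, from 51.8, 43.2 and 52.4 CPM to 56.9, 62.2 and 64.9 CPM in LNCaP (1.24-fold, adjusted p = 0.00548) and 1.43-fold in C4-2 (adjusted p = 0.000685). SLC2A8 (GLUT8), a transporter found mostly inside the cell, fell in C4-2, 1.29-fold at an adjusted p of 0.0499, and did not pass the test in LNCaP (log2FC −0.11, adjusted p = 0.542). Per length, the make-up of the 5 transporters therefore shifted in LNCaP: SLC2A12 was 21.3% ± 4.95 (SD, n = 3) of their summed FPKM with vehicle and 48.2% ± 1.29 with R1881, while SLC2A1 went from 56.9% ± 3.06 to 37% ± 1.64. In C4-2, SLC2A1 stayed the main transporter transcript, at 70.7% ± 1.74 and 72.5% ± 1.2, with SLC2A12 at 2.78% ± 0.217 and 6.99% ± 0.325.

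Both hexokinases, which commit glucose to the cell, rose in both lines. HK1 went from 123, 116 and 121 CPM to 207, 210 and 212 CPM in LNCaP (1.73-fold, log2FC 0.79, SE 0.06, adjusted p = 4.55e-09) and from 299, 317 and 272 to 426, 459 and 430 CPM in C4-2 (1.47-fold, adjusted p = 5.07e-05). HK2, the inducible form, went from 79.9, 85.8 and 82.8 to 137, 151 and 153 CPM in LNCaP (1.75-fold, adjusted p = 3.77e-08) and from 151, 171 and 148 to 227, 196 and 207 CPM in C4-2 (1.33-fold, adjusted p = 0.00183). Every R1881 library lay above every vehicle library for both genes. In the main fit the HK2 response was smaller in C4-2 (difference in log2FC −0.41, adjusted p = 0.016). The difference for HK1 had the same sign and did not pass (−0.24, adjusted p = 0.0708). This contrast between the genes depended on the setting. HK2 lost its call in 3 of 18 fits that left out a library, and HK1 passed without C4-2 vehicle replicate 3. HK1 also passed by DESeq2 and once the GC trend was removed. At the lowest depth, with all libraries thinned to it, HK1 passed and HK2 did not.

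At the phosphofructokinase step the subunits moved apart. PFKM, the muscle-type subunit, fell 1.5-fold in LNCaP, from 222, 217 and 223 to 146, 141 and 159 CPM (adjusted p = 2.95e-07), and 1.17-fold in C4-2 (adjusted p = 0.0202), and PFKP, the platelet-type subunit, rose 1.14-fold and 1.23-fold (adjusted p = 0.0383 and 0.0346). PFKL, the liver-type subunit, passed in neither line. The fall of PFKM was larger in LNCaP (difference 0.34, adjusted p = 0.00687). Among the enzymes that make fructose 2,6-bisphosphate, the activator of phosphofructokinase, PFKFB2 (chr1:207034366-207081024, plus strand) went from 42, 50.4 and 42.6 to 109, 119 and 107 CPM in LNCaP, 2.43-fold (log2FC 1.28, SE 0.07, adjusted p = 1.99e-10). In C4-2 PFKFB2 went from 71.5, 80.3 and 78.9 to 178, 186 and 190 CPM, 2.4-fold (log2FC 1.26, SE 0.08, adjusted p = 3.06e-08). All R1881 libraries lay above the vehicle libraries of both lines, with a difference between the lines of −0.03 (95% interval −0.26 to 0.19). PFKFB3 did not pass in either line, and PFKFB4 rose 1.41-fold in C4-2 (adjusted p = 0.00777). PFKFB2 made up 30.9% ± 3.63 of the summed FPKM of these 3 genes in LNCaP vehicle and 49.8% ± 4.38 with R1881, and 34.1% ± 0.939 and 51.5% ± 2.58 in C4-2.

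Of the enzymes that follow, PGK1, which makes the first ATP of glycolysis, rose most. It went from 617, 650 and 685 to 1021, 1288 and 1317 CPM in LNCaP (1.83-fold, adjusted p = 6.84e-08) and from 818, 917 and 914 to 1583, 1514 and 1418 CPM in C4-2 (1.7-fold, adjusted p = 7.39e-06). ALDOA, ALDOC, PGAM1 and ENO1 also rose in both lines, by 1.15-fold to 1.63-fold. PGAM1 has a near-identical copy, PGAM4, and their reads cannot always be told apart. PKM, the pyruvate kinase of most tumour cells, fell 1.12-fold in LNCaP (adjusted p = 0.0198) and did not pass in C4-2, and GPI rose 1.1-fold in LNCaP (adjusted p = 0.0464) and did not pass in C4-2 (log2FC −0.05). TPI1 rose 1.24-fold in C4-2 at an adjusted p of 0.0494 and did not pass in LNCaP (log2FC −0.02). GAPDH, the transcript to which the study normalised its qRT-PCR, had 1401, 1532 and 1702 CPM in LNCaP vehicle and 1295, 1426 and 1524 CPM with R1881, which overlap (log2FC −0.15, SE 0.07, adjusted p = 0.11). In C4-2 it went from 2175, 2022 and 1655 to 2613, 2634 and 2509 CPM without overlap, a 1.32-fold rise (log2FC 0.40, SE 0.09, adjusted p = 0.00354). The difference between the lines was 0.53 (SE 0.13, adjusted p = 0.00783).

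At the fate of pyruvate, LDHA, which favours lactate, rose 1.28-fold in LNCaP (882, 981 and 942 to 983, 1355 and 1306 CPM, adjusted p = 0.0023) and 1.67-fold in C4-2 (1023, 1068 and 1019 to 1909, 1601 and 1722 CPM, adjusted p = 3.73e-06). In LNCaP the lowest R1881 library stood just above the highest vehicle library. LDHB rose 1.21-fold in C4-2 (adjusted p = 0.0104) and did not pass in LNCaP. PDK1, which switches off pyruvate dehydrogenase, rose 1.17-fold in LNCaP, where 1 R1881 library (76.1 CPM) lay within the vehicle range, and 1.62-fold in C4-2, from 80.2, 91.7 and 96 to 153, 134 and 145 CPM. PDK3 rose 1.39-fold in C4-2 (adjusted p = 0.000478) and did not pass in LNCaP, with a log2FC of −0.09 and an adjusted p of 0.483. The R1881 response of both kinases was larger in C4-2 (differences 0.46 and 0.55, adjusted p = 0.0299 and 0.00356). The PDK1 call was lost in 7 of 18 fits that left out a library, and both calls were lost with counts thinned to the smallest library. PDK2 and PDHA1 passed in neither line. In the pentose phosphate pathway TALDO1 rose in both lines (1.61-fold and 1.31-fold) and PGD in LNCaP (1.22-fold), and TKT passed in neither.

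**Figure D2:**
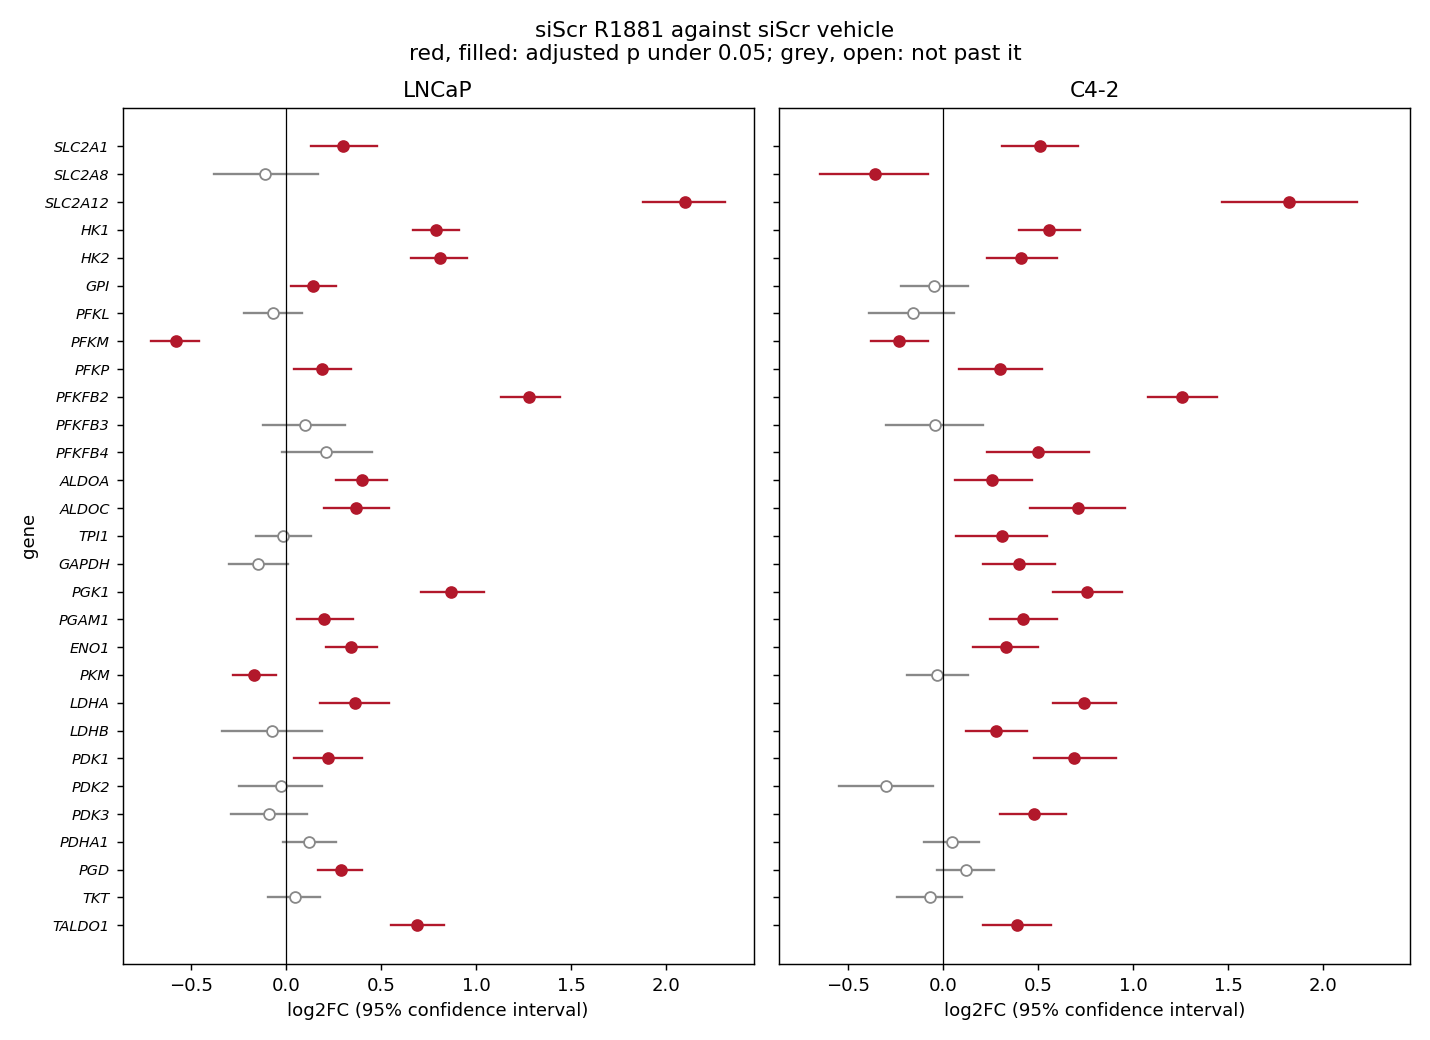
Log2FC of R1881 against vehicle for the members in LNCaP and C4-2, with 95% confidence intervals from the edgeR fit and filled points for adjusted p under 0.05. SLC2A3 and SLC2A10, at or near 0 counts with vehicle, and PDK4 are not drawn; of those drawn, SLC2A12 and PFKFB2 are past a log2FC of 1 in both lines, and PFKM is the member that fell in both.

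Of the members that rose, 15 did so in both lines, which is 83.3% of the 18 in LNCaP and 75% of the 20 in C4-2. Over all genes, 2017 rose in both lines, or 50.1% of those in LNCaP and 69.5% of those in C4-2. The 15 were SLC2A1, SLC2A3, SLC2A12, HK1, HK2, PFKP, PFKFB2, ALDOA, ALDOC, PGK1, PGAM1, ENO1, LDHA, PDK1 and TALDO1. The response differed between the lines for 5 of 31 members (14% of all genes tested), namely HK2, PFKM, GAPDH, PDK1 and PDK3. Adding pseudogene counts brought in SLC2A3, through vehicle values that are almost wholly pseudogene counts. On its own counts SLC2A3 did not pass (difference 2.62, adjusted p = 0.429). Leaving out single libraries, 15 of the 20 calls in LNCaP held every time, as did 15 of the 22 in C4-2; those that were lost at least once were GPI, PFKP, PGAM1, PKM and PDK1 in LNCaP and SLC2A8, PFKM, PFKP, PFKFB4, ALDOA, TPI1 and LDHB in C4-2. Other settings also ended some of these calls. In LNCaP, GPI was lost with the replicate block, with at least 10 counts in every library and with only the groups compared, PDK1 with the GC trend removed and with only the groups compared, and PKM with no filter on low counts. In C4-2, SLC2A8 was lost with RLE factors, with DESeq2, with the GC trend removed, with pseudogene counts added and with thinned counts, ALDOA and TPI1 with pseudogene counts added and with thinned counts (TPI1 also with at least 10 counts in every library), PFKM with no filter and LDHB with the GC trend removed. The genes that rose with R1881 had a median GC content of 47.2% in LNCaP and 45.6% in C4-2 and those that fell 51.4% and 55.3%. With the GC trend removed 20 members changed in each line, beside 50.3% of all genes in LNCaP and 34.1% in C4-2. In the main fit those shares were 46.6% and 32.8%.

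The neighbouring genes of the pathway were described by lists whose genes are not among the 32, and their counts are to be read beside the 23.5% of all genes that rose and 23.2% that fell in LNCaP and the 17.1% and 15.7% in C4-2. Of 9 genes of pyruvate entry, 6 rose and 1 fell in LNCaP and 5 rose in C4-2. The mitochondrial pyruvate carrier subunit MPC2 led them, going from 78.6, 84 and 84.3 to 400, 466 and 420 CPM in LNCaP (5.13-fold, adjusted p = 7.7e-14) and from 137, 130 and 108 to 447, 385 and 384 CPM in C4-2 (3.19-fold, adjusted p = 5.4e-09). That increase was above that of every glycolytic enzyme among the members. Of 17 tested hypoxia-inducible genes outside glycolysis, 10 rose and 4 fell in LNCaP and 12 rose and 2 fell in C4-2, with NDRG1 (5.14-fold and 4.44-fold) and ANKRD37 (4.67-fold and 3.28-fold) highest in both lines. ADM, another of these genes, fell 6.07-fold in LNCaP, from 58 counts over the 3 vehicle libraries to 9. Of 11 other pentose phosphate genes 3 rose and 1 fell in LNCaP and 1 rose and 1 fell in C4-2, and of 12 other transporter and glycolysis genes 3 rose and 4 fell, and 1 rose and 3 fell. Among the latter the sodium-glucose cotransporter SLC5A1 fell 3.19-fold and 6.69-fold from vehicle means of 1.83 and 5.91 CPM. Of 5 tested genes of gluconeogenesis 3 rose in LNCaP, and in C4-2 FBP2 rose and PCK2 fell. Of the regulators 2 rose and 4 fell of 6 tested in LNCaP, and 2 rose and 2 fell of 7 in C4-2. CAMKK2, a kinase upstream of AMPK, rose 2.3-fold and 3.42-fold, while TXNIP, an inhibitor of glucose uptake, fell in LNCaP (log2FC −0.91, adjusted p = 1.59e-08) and had 258 CPM with vehicle and 261 CPM with R1881 in C4-2.

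The dual knockdown was compared with siScr in the presence of R1881 to ask which androgen-treated levels depended on the demethylases. The members that passed the test moved by small amounts, upward in LNCaP and in both directions in C4-2, and most members passed in neither direction. In LNCaP 12 of 31 rose and 0 fell, against 8.27% and 5.89% of all genes, and in C4-2 1 of 30 rose and 3 fell, against 12.7% and 10.8%. The falls in C4-2 (10%) were thus near the share of all genes. Without C4-2 R1881 replicate 1, or without C4-2 knockdown replicate 2, 2 members rose and 2 fell. Of genes averaging at least 50 CPM 13.5% rose in LNCaP and 15.7% in C4-2. A log2FC of 1 was reached by 0 members, and by 0.286% and 3.94% of all genes. The median log2FC of the members was 0.21 in LNCaP and −0.05 in C4-2, with −0.12 without C4-2 knockdown replicate 1 and 0.012 without replicate 2, so its sign was not settled in C4-2, and 0.095 in LNCaP with the trend of counts with GC content removed. ALDOC passed the test in both lines, rising in LNCaP and falling in C4-2. The siScr R1881 libraries serve in this comparison and in that with vehicle, so the values of the 2 are not independent.

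In LNCaP the 12 were enzymes of glycolysis from phosphofructokinase downwards, with LDHA and TKT, and their folds ran from 1.18 to 1.3. GAPDH had 1838, 1944 and 1681 CPM with the knockdown against 1295, 1426 and 1524 CPM (1.3-fold, log2FC 0.38, SE 0.07, adjusted p = 0.00446). TPI1 had 881, 885 and 786 CPM against 633, 720 and 700 (1.26-fold, adjusted p = 0.00624), and ALDOA 1360, 1453 and 1289 against 1085, 1103 and 1132 (1.25-fold, adjusted p = 0.00554). For these 3 genes every knockdown library lay above every siScr R1881 library. ENO1, PKM, PGAM1, PGK1, LDHA, PFKL, PFKP, ALDOC and TKT made up the rest, with adjusted p between 0.0068 and 0.045. The transporters and hexokinases did not pass: SLC2A12 had 60.7, 63 and 62.9 CPM with the knockdown (log2FC −0.20, adjusted p = 0.143), HK2 had 125, 145 and 147 CPM (−0.06, adjusted p = 0.587) and SLC2A3 had 6.84, 7.85 and 6.98 CPM (0.07, adjusted p = 0.843).

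The genes that rose with the knockdown in LNCaP had a median GC content of 60.7% and those that fell 43.2%, beside 54.9% for the members and 49.6% for all genes tested, whereas in C4-2 these medians were 49.8% and 48.4%. With the trend of counts with GC content removed from each library, 3 of the 12 calls in LNCaP held (PGK1, ENO1 and LDHA), of which PGK1 and LDHA were lost with RLE factors in place of TMM and all 3 without knockdown replicate 2. Of the 12, 0 held under every setting tried. The count was 6 without LNCaP R1881 replicate 2, 6 without knockdown replicate 1 and 3 without knockdown replicate 2, fits in which the share of all genes that changed also went from 14.2% to 4.7%, 5.13% and 4.74%, and ALDOA, TPI1 and GAPDH held with any single library left out, though not with the GC trend removed.

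In C4-2, 4 members changed, of which ALDOC was also among the 12 of LNCaP, in the other direction, so 0 were shared in the same direction. Over all genes, 350 rose in both lines, or 24.6% of those in LNCaP and 16.3% of those in C4-2. A further 369 fell in both, or 36.5% and 20.1%. PFKFB2 fell from 178, 186 and 190 to 128, 145 and 136 CPM (1.36-fold lower, log2FC −0.44, SE 0.08, adjusted p = 0.00124), with its vehicle libraries at 71.5, 80.3 and 78.9. HK2 fell from 227, 196 and 207 to 156, 147 and 169 CPM (1.34-fold lower, log2FC −0.42, SE 0.08, adjusted p = 0.00232), values that overlap its vehicle libraries at 151, 171 and 148 CPM. ALDOC, an aldolase with 129, 147 and 129 CPM in vehicle, went from 235, 230 and 202 to 207, 139 and 164 CPM, with overlap (1.31-fold lower, adjusted p = 0.0232). LDHB, the subunit that favours pyruvate, rose from 588, 522 and 532 to 712, 673 and 717 CPM (1.28-fold, log2FC 0.35, SE 0.07, adjusted p = 0.00334). SLC2A3 had 18.7, 13.3 and 15.6 CPM with the knockdown, all above the siScr R1881 libraries, and did not pass (log2FC 0.40, 95% interval 0.08 to 0.72, adjusted p = 0.0657). GAPDH had 3043, 2537 and 2679 CPM, overlapping siScr R1881 (0.08, adjusted p = 0.551). HK2, PFKFB2 and LDHB held with any library left out, while ALDOC was lost without R1881 replicate 1 or 2 or knockdown replicate 2 or 3, and the count rose to 8 without knockdown replicate 1, where 24.4% of all genes changed.

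The response to the knockdown differed between the lines for ALDOC (difference −0.63, SE 0.16, adjusted p = 0.0132) and PGAM1 (−0.34, SE 0.11, adjusted p = 0.0477), 2 of 31 members beside 10.9% of all genes. PGAM1 lost this call in 15 of 18 fits that left out a library and with thinned counts, and ALDOC lost it without LNCaP knockdown replicate 2. For HK2 and PFKFB2, which fell in C4-2 and did not pass in LNCaP, the difference was −0.34 (adjusted p = 0.0538) and −0.25 (adjusted p = 0.131), so a difference between the lines was not shown in this fit. The difference for HK2 passed with DESeq2, with at least 10 counts in every library, with the replicate block, with the GC trend removed, with only the groups compared and without any 1 of LNCaP knockdown replicate 1, C4-2 vehicle replicate 3 and C4-2 knockdown replicate 3, and that for PFKFB2 passed with the GC trend removed. In neither line did the knockdown libraries return SLC2A12 to its vehicle level, with 60.7 to 63 CPM in LNCaP and 7.91 to 10.4 CPM in C4-2, and SLC2A12 did not pass in C4-2 (log2FC −0.28, adjusted p = 0.176).

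**Figure D3:**
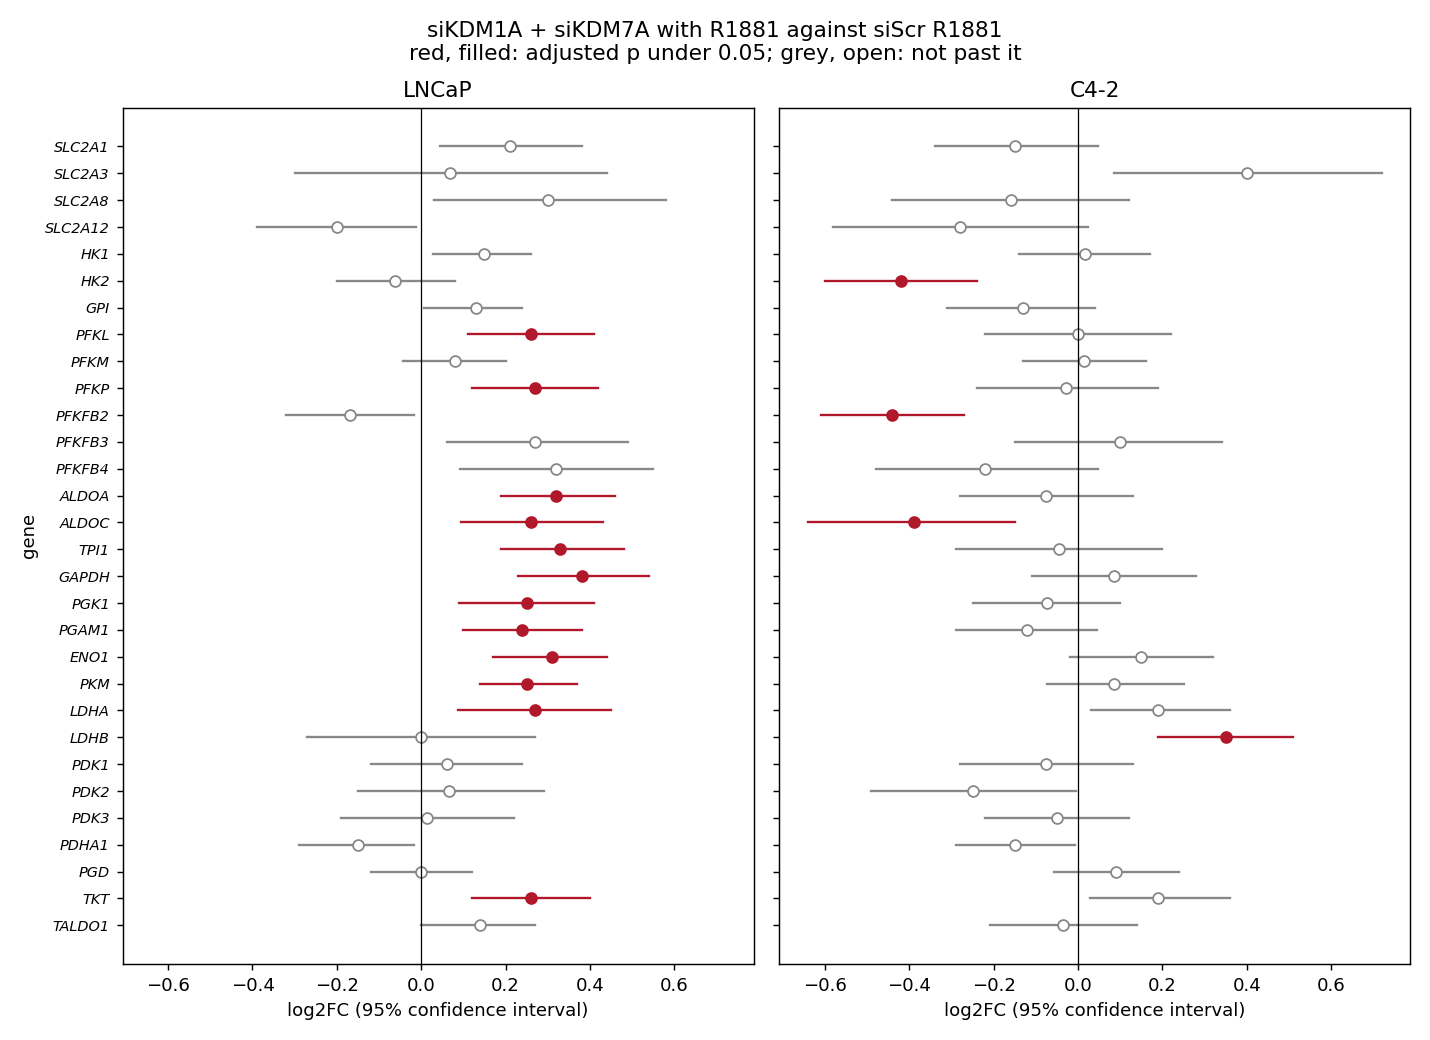
Log2FC of the dual knockdown against siScr, both with R1881, for the members in LNCaP and C4-2 other than SLC2A10 and PDK4, with 95% confidence intervals from the edgeR fit and filled points for adjusted p under 0.05. In LNCaP 12 members lie above 0 past the test, and in C4-2 HK2, PFKFB2 and ALDOC lie below 0 and LDHB above.

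Among the neighbouring lists, the knockdown changed 7 of 11 other pentose phosphate genes in C4-2, of which 5 rose and 2 fell, and 2 of 11 in LNCaP, beside 23.5% and 14.2% of all genes. PRPS1, which makes the ribose donor of nucleotide synthesis, rose in C4-2 from 120, 112 and 115 to 198, 184 and 193 CPM (log2FC 0.72, adjusted p = 3.74e-05), and RPIA from 10.9, 14.3 and 12.7 to 23.7, 19.3 and 20.4 CPM (log2FC 0.74, adjusted p = 0.00231). Of the regulators 5 of 7 changed in C4-2 (HIF1A −0.54, TXNIP −0.28, ARRDC4 −0.76, CAMKK2 −0.32 and MLXIPL 0.78) and 1 of 6 in LNCaP (HIF1A −0.20, adjusted p = 0.0353). Of 9 pyruvate entry genes 1 rose and 1 fell in LNCaP and 3 rose and 2 fell in C4-2. Of 17 hypoxia-inducible genes 2 rose in LNCaP, and in C4-2 VEGFA (−0.60) and CA9 (−0.90) fell. Of 12 other transporter and glycolysis genes 1 rose in each line, and of 5 gluconeogenesis genes 2 rose in LNCaP and 1 in C4-2.

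The lines were then compared with each other under the same treatment. C4-2 had more of most of these transcripts. With vehicle 25 of 31 members were higher in C4-2 and 1 was lower, against 29.4% and 29.5% of all genes (41.7% higher among those averaging at least 50 CPM), and with R1881 25 were higher and 3 lower, against 28.6% and 29.7% (39.2% higher among those averaging at least 50 CPM). The median log2FC of the members was 0.53 with vehicle and 0.57 with R1881, beside −0.01 over all genes in each. With the GC trend removed, 23 members were higher and 2 lower with vehicle, beside 32.5% and 28.8% of all genes. Their median log2FC was then 0.41 with vehicle and 0.55 with R1881. Of the members higher in C4-2, 22 were so under both treatments, 88% of each list, and over all genes the shares were 74.3% and 76.2%.

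LDHB was the member that differed most. It had 43.5, 63.1 and 75 CPM in LNCaP vehicle, 56.1, 64.1 and 56 with R1881 and 61.6, 54.5 and 57.5 with the knockdown, and 467, 423 and 459 CPM, 588, 522 and 532 CPM and 712, 673 and 717 CPM in the same groups of C4-2. No C4-2 library came near the LNCaP libraries. The gene was 7.37-fold higher in C4-2 with vehicle (log2FC 2.88, SE 0.12, adjusted p = 2.11e-14) and 9.33-fold with R1881 (3.22, SE 0.12, adjusted p = 3.71e-15). LDHA differed far less, 1.11-fold with vehicle (adjusted p = 0.164) and 1.44-fold with R1881 (adjusted p = 4.08e-05). Per length, LDHB was 11.8% ± 2.46, 9.26% ± 1.24 and 7.72% ± 0.648 of the summed LDHA and LDHB FPKM in LNCaP vehicle, R1881 and knockdown, and 47.4% ± 1.94, 39.5% ± 0.752 and 42.2% ± 0.693 in C4-2. The size of these shares rests on the gene lengths used, 6210 bases for LDHA and 2983 for LDHB. By mean CPM in C4-2 vehicle LDHB stood at 450 and LDHA at 1037.

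**Figure D4:**
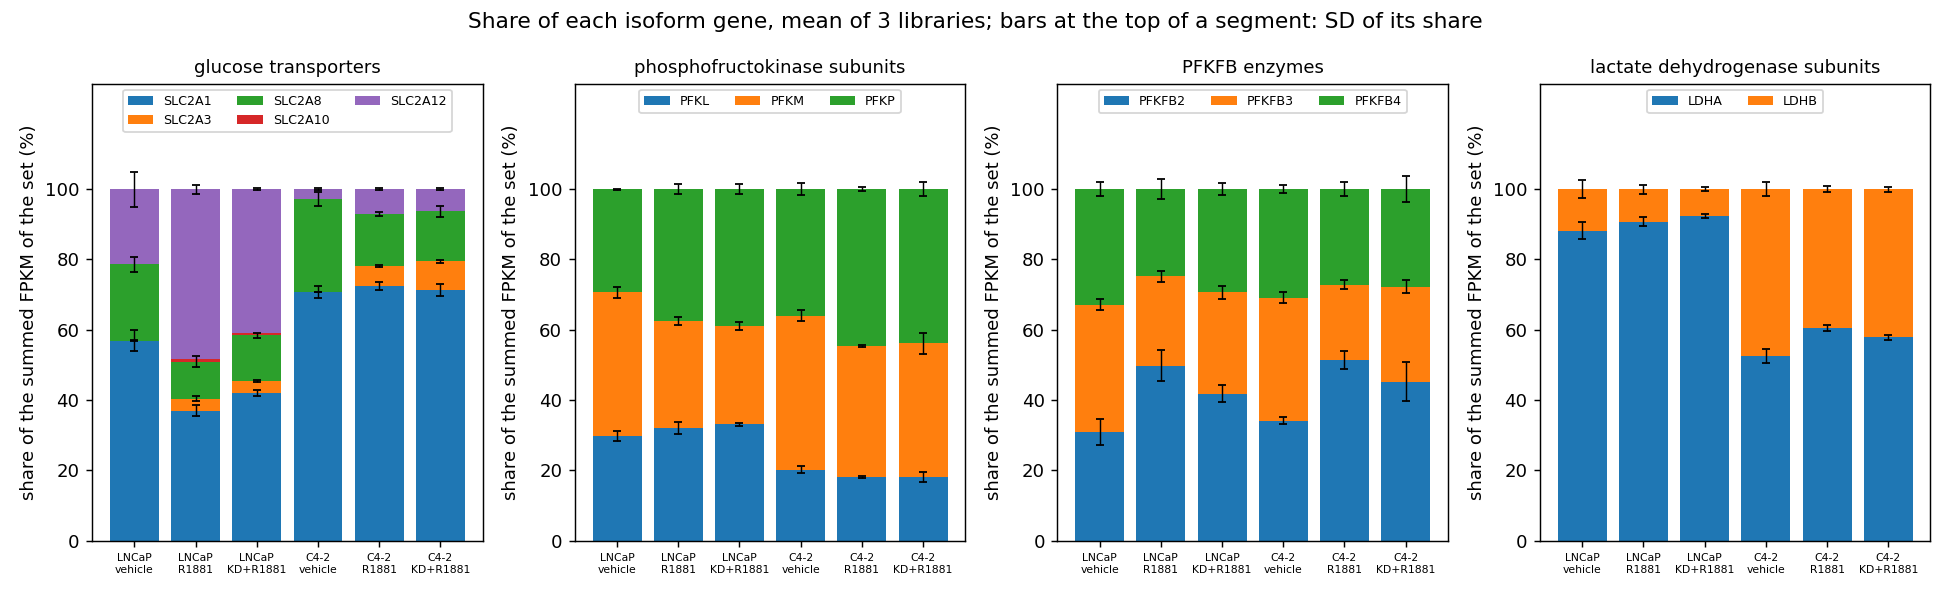
Share of each gene in the summed FPKM of its set (glucose transporters, phosphofructokinase subunits, PFKFB enzymes and lactate dehydrogenase subunits), in percent, as stacked group means over 3 libraries, with the SD of a share at the top of its segment (KD, the dual knockdown). LDHB takes 7.01% to 14.2% of the summed lactate dehydrogenase FPKM in the LNCaP libraries and 39.1% to 48.7% in those of C4-2, and SLC2A12 gains on SLC2A1 with R1881 in LNCaP.

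The gate to the citric acid cycle also differed. PDHA1 was 2.39-fold higher in C4-2 with vehicle (77.3, 80.5 and 83.1 CPM against 196, 190 and 189) and 2.24-fold with R1881, and PDK3, which inhibits it, was 2.28-fold and 3.34-fold higher (17.8, 21.5 and 18.6 CPM against 45.3, 45.3 and 41.2 with vehicle, and 17.6, 20.6 and 17.4 against 66.1, 58.2 and 61.2 with R1881). Adjusted p was 2.07e-10 or lower in all 4 tests. Per length, PDK3 was 46.3% ± 2.22 of the summed FPKM of the 4 kinases in LNCaP vehicle and 60.4% ± 1.48 in C4-2 vehicle. These shares rest on the gene lengths used, 14883 bases for PDK1 and 2695 for PDK3. By mean CPM PDK1 was the higher, at 77.4 against 19.3 for PDK3 in LNCaP vehicle and 89.3 against 43.9 in C4-2 vehicle. HK1 was 2.48-fold higher in C4-2 with vehicle and 2.09-fold with R1881, HK2 1.9-fold and 1.43-fold, and GAPDH 1.26-fold (adjusted p = 0.00356, with overlapping libraries, a call lost with the GC trend removed) and 1.83-fold (adjusted p = 5.9e-08).

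The transporters divided. SLC2A1 was higher in C4-2, 1.74-fold with vehicle and 1.99-fold with R1881, and SLC2A3 was 1.71-fold higher with R1881 (adjusted p = 0.000476). SLC2A12 went the other way and was 5.58-fold lower in C4-2 with vehicle (log2FC −2.48, SE 0.15, adjusted p = 1.1e-11) and 6.8-fold lower with R1881 (−2.77, SE 0.12, adjusted p = 1.21e-14), so that the R1881 libraries of C4-2, at 10.3 to 11 CPM, lay below even the vehicle libraries of LNCaP. SLC2A10 was also lower in C4-2 with R1881, with 11 counts over the 3 libraries against 71 (6.65-fold lower, adjusted p = 7.67e-05), and PFKL was 1.17-fold lower (adjusted p = 0.0487), a call lost in 12 of the 18 fits that left out a library. The other calls lost at least once with a library left out were ALDOA, ALDOC and PGD with vehicle and PDK2 and TALDO1 with R1881. ALDOA, ALDOC and PGD were also lost with the GC trend removed and with at least 10 counts in every library. PGD was lost as well with no filter on low counts and with thinned counts, and PFKL and PDK2 with thinned counts. ALDOA and PGD did not pass with R1881 (adjusted p = 0.415 and 0.9). TKT did not pass either (log2FC 0.17, adjusted p = 0.0513), but did with RLE factors, with DESeq2, with the replicate block and with only the groups compared. The neighbouring genes did not all follow the members. Of 13 other transporter and glycolysis genes 6 were higher and 4 lower in C4-2 with vehicle, and 4 and 4 with R1881. In that order, the counts were 5, 2, 4 and 2 of 9 pyruvate entry genes. For 11 other pentose phosphate genes they were 5, 4, 3 and 5, and for 5 gluconeogenesis genes 1, 0, 1 and 3. For 7 regulators they were 1, 3, 4 and 0, and for 18 hypoxia-inducible genes 8, 5, 10 and 3. The shares of all genes were 29.4%, 29.5%, 28.6% and 29.7%. ENO2, the neuronal enolase, was 2.44-fold and 2.27-fold lower in C4-2, while DLD, a subunit of pyruvate dehydrogenase, was 3.22-fold and 3-fold higher.

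**Figure D5:**
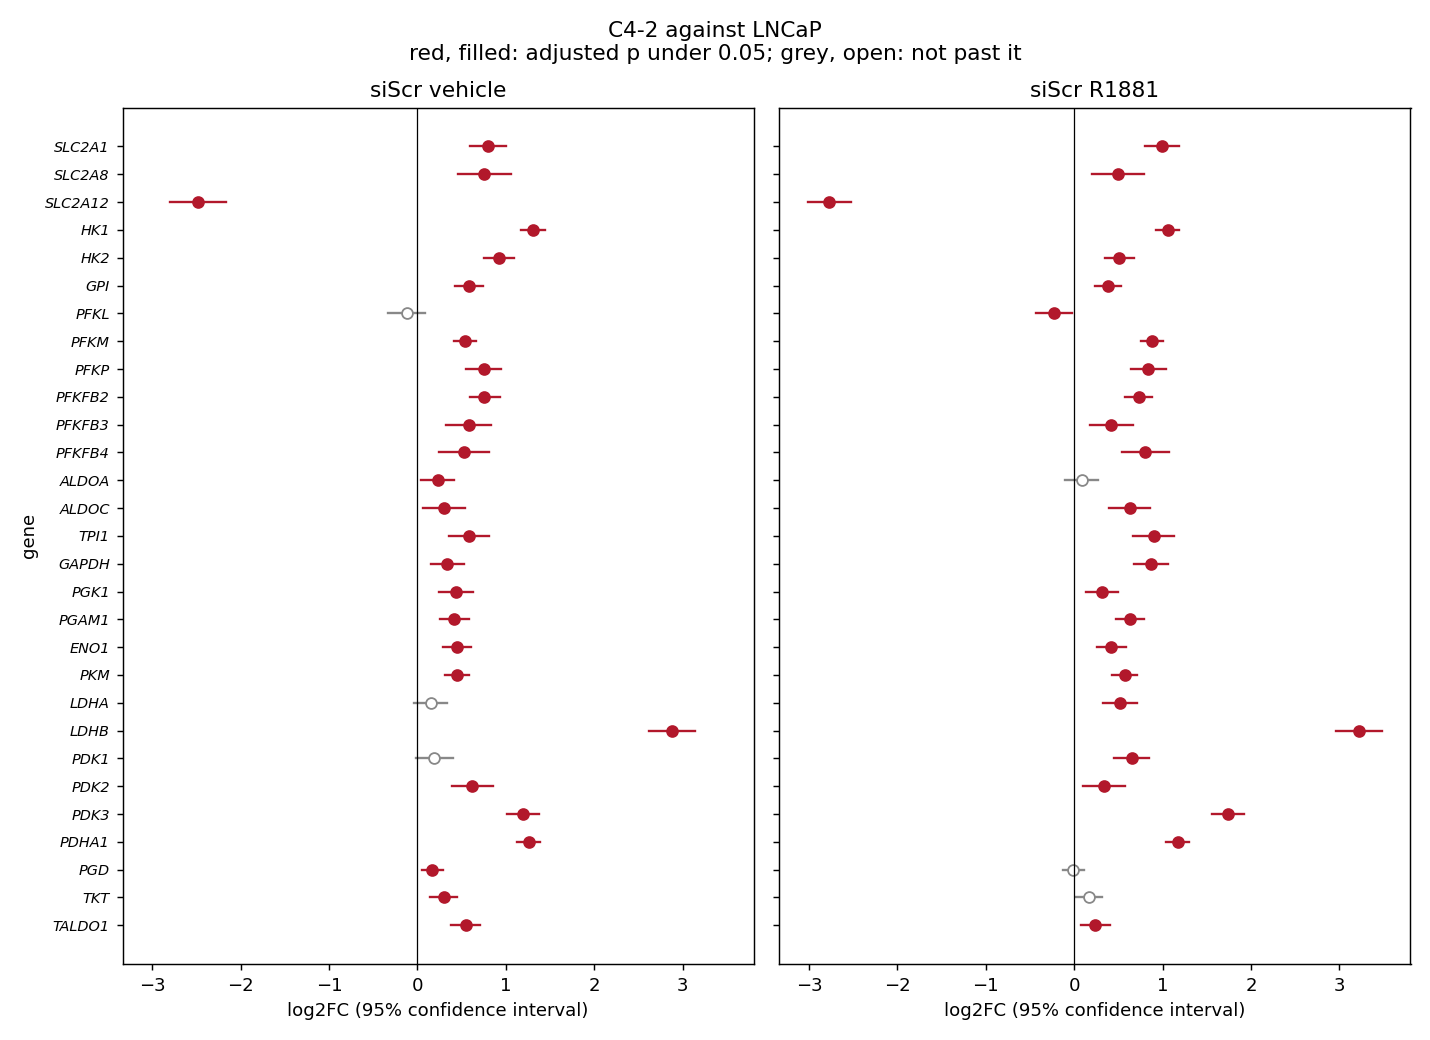
Log2FC of C4-2 against LNCaP with vehicle and with R1881 for the members other than SLC2A3, SLC2A10 and PDK4, with 95% confidence intervals from the edgeR fit and filled points for adjusted p under 0.05. LDHB lies farthest above 0 and SLC2A12 is below 0 under both treatments.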

How the data were processed

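Expression was measured by paired-end poly(A) RNA Seq in 18 libraries. The deposited values are raw counts of read pairs per gene, which the authors made by trimming (Trim Galore, cutadapt), alignment to GRCh38 (STAR, version not given in the sources used here) and counting with featureCounts 1.5.0-p1 on Ensembl annotation 83, per the file headers and the submitters' processing notes. No strand option was set, so overlapping antisense genes could not be told apart, and reads shared by near-identical copies may be lost or split. Symbols and GC content came from GENCODE 29, and gene lengths from the deposited count files. The study names DMSO as vehicle for these libraries and ethanol for R1881 in culture. The vehicle is therefore not specified further here. Some results are not reported here.

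Counts were fitted with edgeR 4.0.16 and limma 3.58.1 (R 4.3.3). Library sizes were scaled by TMM, low genes were removed by filterByExpr (the equivalent of 10 counts at the median depth in at least 3 libraries, and 15 counts in total), the quasi-likelihood F-test was 2-sided, and p-values were adjusted by Benjamini and Hochberg's method over all genes tested. The 9 libraries of a line shared a fit, and all 18 were used to compare lines and for interactions. A gene changed with adjusted p under 0.05 and was differentially expressed with a log2FC of at least 1 as well. CPM and FPKM came from 1 TMM scaling of the 18 libraries. Python 3.11.15 (pandas 2.3.3, numpy 2.4.6, scipy 1.17.1, matplotlib 3.10.9) was used for tables and figures. A group at 0 counts was set to 3 counts. Depth limits low genes, and exact 95% intervals cover counting error only.

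Values per library are given for members differentially expressed within a line, the 3 largest log2FC per comparison among members that changed with a mean of at least 1 CPM, and GAPDH; other members named per library (SLC2A1, PFKM, PGK1, PGAM1, LDHA, PDK1, PDHA1) were chosen after their values were seen. The members, the lists of neighbouring genes and the rule were chosen with earlier results of these data known. Alternatives were RLE factors, DESeq2 1.42.0, a replicate block, keeping all genes or those with 10 counts throughout, removal of the GC trend, added pseudogene counts, counts thinned to the smallest library, only the groups compared, and each library left out. The fit was tested on simulated data. At a log2FC of 0.5 it recovered 42 of 98 changed genes for R1881 in LNCaP, 38 of 96 in C4-2, 47 of 98 for the knockdown in LNCaP and 35 of 99 in C4-2. It recovered only 16 of 95 for the difference between lines in the R1881 response and 21 of 94 for that in the knockdown response, with 0 of wrong sign throughout. Few genes were changed in these simulations, for R1881 in LNCaP beside 16578 unchanged ones, whereas 46.6% of all genes changed there in the data. Adjustment over all genes is stricter where few change, so these counts do not give the sensitivity of the tests in the data.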

Additional observations from a re-analysis of the deposited data

Results flagged for a closer look

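Tests of the difference between the lines picked out 7 members. For the response to R1881 they were 5 of 31, beside 14% of all genes tested. For the response to the dual knockdown they were 2 of 31, beside 10.9%. Counts so near or below the share of all genes do not set the members apart. For the response to R1881, expressed as C4-2 minus LNCaP in log2FC, these were HK2 (−0.41, adjusted p = 0.016), PFKM (0.34, adjusted p = 0.00687), GAPDH (0.53, adjusted p = 0.00783), PDK1 (0.46, adjusted p = 0.0299) and PDK3 (0.55, adjusted p = 0.00356), from the interaction of line and treatment in edgeR. PFKM, GAPDH and PDK3 kept the call with any single library left out, and HK2 and PDK1 did not, and HK2, PDK1 and PDK3 lost it when all libraries were thinned to the lowest depth. For the response to the dual knockdown they were ALDOC (−0.63, adjusted p = 0.0132) and PGAM1 (−0.34, adjusted p = 0.0477), of which ALDOC lost the call in 1 and PGAM1 in 15 of 18 fits that left out a library, PGAM1 also with thinned libraries. The 2 differences for the knockdown were seen beside a deeper loss of KDM1A in C4-2 (8.67-fold) than in LNCaP (2.07-fold), whose part in them was not tested. For GAPDH, the 3 vehicle libraries of C4-2 include the library with 3182604 counts, which had the lowest of their GAPDH levels (1655 CPM).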

How the results depend on the processing

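Of 52 results for single named genes, 1104 of 1155 values under other settings kept direction and call, 51 lost the call and 0 reversed. These 52 are calls of genes named mostly for a large log2FC, and some fits left out a library outside the comparison. The tally therefore does not describe all members. Over all members, 9 of the 12 knockdown calls in LNCaP were lost in at least 1 fit that left out a library. The number of members changed moved by more than 1.5 times under these settings. For the knockdown it was 12 in LNCaP and 3 with the GC trend removed (14.2% and 6.02% of all genes), and 4 and 7 in C4-2 (23.5% and 31.1%). For the difference between lines in the R1881 response it was 5 (14% of all genes), with 8 by DESeq2 (15%) and 3 with thinned counts (9.99%). For that in the knockdown response it was 2 (10.9% of all genes), with 5 by DESeq2 (12.9%) and 6 without a filter (4.55%). It was 6 with at least 10 counts in every library (18%), 5 with the replicate block (12.6%) and 5 with the GC trend removed (14.2%). With thinned counts it was 1 (6.29%) and with only the groups compared 6 (12.7%). The cause was not tested. Leaving out single libraries, the counts ranged from 16 to 20 (R1881 in LNCaP), 15 to 23 (R1881 in C4-2), 3 to 14 (knockdown in LNCaP), 3 to 8 (knockdown in C4-2), 23 to 26 (lines with vehicle), 26 to 29 (lines with R1881), 4 to 7 (R1881 difference) and 0 to 8 (knockdown difference). In the same order, the share of all genes that changed ran from 38.3% to 44.6%, 22.9% to 37.7%, 4.7% to 16.9% and 14.1% to 26.8%. For the lines it ran from 50.1% to 57.7% and 50.2% to 58.7%, and for the differences from 10% to 15.7% and 6.45% to 17.9%. For the knockdown difference, the count of 0 came without LNCaP knockdown replicate 2 (6.8% of all genes) and that of 8 without C4-2 knockdown replicate 1 (17.9%). Without a filter more low genes were tested, and 20.6% rather than 46.6% of all genes changed with R1881 in LNCaP.

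Same-numbered libraries did not deviate together: over 18 pairs the correlation of deviations from the group means ran from −0.08 to 0.13, above 0.1 in 2. With the replicate number as a block, 19 and 22 members changed with R1881 in LNCaP and C4-2, 14 and 5 with the knockdown, 26 and 29 between lines with vehicle and with R1881, and 5 and 5 in the differences between lines. In the same order, the shares of all genes were 46% and 34.1%, 14.8% and 25.5%, 58.9% and 58.7%, and 14.7% and 12.6%.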

Other observations

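PGAM4, an intronless copy of PGAM1, had 116 counts in LNCaP vehicle replicate 1 and 169 in C4-2 vehicle replicate 3, and at most 9 in each of the other libraries. In C4-2 vehicle replicate 3, the library with the fewest counts, this came to 49 CPM beside a PGAM1 level of 183 CPM. The other 2 C4-2 vehicle libraries held 197 and 190 CPM of PGAM1 and 0.103 and 0.515 CPM of PGAM4.

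PPARGC1A, a coactivator of mitochondrial genes, had 7 counts over the LNCaP vehicle libraries and 295 over those of C4-2, where it was 49.8-fold higher (edgeR, adjusted p = 3.16e-12), and it was 32.1-fold higher with R1881 (adjusted p = 2.09e-12). CA9, a carbonic anhydrase induced by hypoxia, had 41 counts with vehicle in LNCaP and 264 in C4-2 (7.51-fold higher, adjusted p = 1.09e-05). The transporters SLC2A6 and SLC2A13 were also higher in C4-2 with vehicle, 3.29-fold and 5.63-fold. NDRG1 went the other way, at 2.27-fold lower with vehicle and 2.64-fold lower with R1881.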
